A study of Drosophila melanogaster with 3 samples.

Results

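Sex in Drosophila melanogaster is set by a chain of RNA regulators, and the genes of that chain and of the dosage compensation it controls are described here as places of Sox100B-GFP binding. The members are 10 genes named by their role: Sxl, tra, tra2, fru, ix and her of sex determination, and msl-1, msl-2, mle and mof of dosage compensation. They were found by symbol in the Ensembl annotation, which places 13945 protein-coding genes on 6 chromosome arms. A region was given to a member when its summit, the point of highest signal, lay in the gene body or up to 5 kb on either side. Of the 5683 reproducible regions in the series, 10 met this rule, at 4 of the 10 genes. The material was whole embryos of the strain Sox100B-GFP, males and females pooled, collected at 6 to 16 h. The strain stably carries Sox100B, a group E Sox transcription factor with an HMG box, joined at its C terminus to GFP, so binding is that of the tagged protein and no untagged or input list was used here. All 3 biological replicates belong to 1 group, and no comparison between sexes, stages or tissues can be made, nor can the bound cell types be told apart. The free-text description calls the samples an input control, but their antibody is given as Sox100B and their assay as ChIP-seq, which is followed.

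Sxl encodes an RNA-binding protein that is made in females and acts as the master switch. It has an early promoter, Pe, which reads the X chromosome dose in the young female embryo, and a maintenance promoter, Pm, which is used later in both sexes and whose transcripts Sxl itself splices into the productive form. Sxl directs the splicing of tra, and Tra with Tra2 directs the female splicing of dsx and of the fru transcripts from the outermost promoter, P1, which encode the Fruitless proteins of courtship neurons. Intersex works with the female Doublesex protein, and Hermaphrodite, a zinc finger protein, acts early on Sxl and later on terminal differentiation. Where Sxl is absent, msl-2 is translated, and the MSL complex with Msl-1, the helicase Mle and the acetyltransferase Mof raises transcription of the male X chromosome.

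Of the 10 regions, 7 are shown by their sequence, since they are the regions the results turn on. They are all 4 in the Sxl window, the strongest of fru and the one nearest a fru start, and the only one in the her window. Each line holds 201 bases, 100 on each side of the summit, on the dm6 build and on the strand of the member gene, which is minus for Sxl and fru and plus for her. The sequences were read from the release 6 genome of RefSeq. Capitals mark matches on either strand to any of 5 words: ACAAAG and ACAATG, both forms of the Sox core, GAGAG of the GAGA factor, TATCGATA of the promoter factor DREF, and CAGGTA of Zelda. Matches did not overlap one another.
Sxl, rank 3654, chrX:7094966-7095166: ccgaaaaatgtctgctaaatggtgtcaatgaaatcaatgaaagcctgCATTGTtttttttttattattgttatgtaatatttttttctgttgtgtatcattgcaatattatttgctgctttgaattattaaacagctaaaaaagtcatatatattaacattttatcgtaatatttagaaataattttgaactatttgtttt
Sxl, rank 1222, chrX:7095613-7095813: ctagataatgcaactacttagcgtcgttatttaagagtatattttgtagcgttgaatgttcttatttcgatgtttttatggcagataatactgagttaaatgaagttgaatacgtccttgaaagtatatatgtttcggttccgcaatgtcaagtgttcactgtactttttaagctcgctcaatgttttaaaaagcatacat
Sxl, rank 899, chrX:7096609-7096809: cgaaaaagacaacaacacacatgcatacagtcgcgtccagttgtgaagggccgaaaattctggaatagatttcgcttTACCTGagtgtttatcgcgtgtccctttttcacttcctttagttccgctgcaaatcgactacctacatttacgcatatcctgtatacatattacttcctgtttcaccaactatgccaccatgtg
Sxl, rank 837, chrX:7101732-7101932: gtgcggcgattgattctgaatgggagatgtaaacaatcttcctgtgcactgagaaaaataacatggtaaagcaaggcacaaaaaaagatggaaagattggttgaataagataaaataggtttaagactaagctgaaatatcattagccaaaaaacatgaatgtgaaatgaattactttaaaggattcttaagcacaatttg
fru, rank 2936, chr3R:18439407-18439607: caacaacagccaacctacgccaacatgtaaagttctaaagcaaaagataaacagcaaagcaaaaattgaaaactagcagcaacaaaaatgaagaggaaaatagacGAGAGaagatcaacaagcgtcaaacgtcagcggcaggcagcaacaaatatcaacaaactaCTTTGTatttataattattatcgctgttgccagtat
fru, rank 2503, chr3R:18508394-18508594: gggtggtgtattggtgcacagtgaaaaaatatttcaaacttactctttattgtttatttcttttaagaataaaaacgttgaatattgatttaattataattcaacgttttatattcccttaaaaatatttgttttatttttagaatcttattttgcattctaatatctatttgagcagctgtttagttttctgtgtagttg
her, rank 1701, chr2L:16684250-16684450: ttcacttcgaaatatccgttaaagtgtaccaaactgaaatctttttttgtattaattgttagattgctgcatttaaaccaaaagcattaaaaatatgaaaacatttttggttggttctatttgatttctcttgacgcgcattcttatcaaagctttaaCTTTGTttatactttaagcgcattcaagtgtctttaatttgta

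A Sox core lay within 100 bp of 3 of the 10 summits, against 24.9% of all reproducible regions and 25.6% of the 24317 pooled regions outside them. The 3 were the weakest Sxl region, with ACAATG 48 bp from the summit, the fru region of rank 2936, with ACAAAG at 65 bp, and the her region, with ACAAAG at 58 bp. No core lay within 50 bp of any of the 10, where 13.3% of all reproducible regions held one. The strongest Sxl region inside the gene held CAGGTA 18 bp from its summit, a word present at 3.59% of reproducible regions, and the fru region of rank 2936 held GAGAG at 5 bp, a word present at 19.2%. TATCGATA was at none of the 10 and at 1.79% of reproducible regions. The remaining 6 summits had no match to any of the words. The share of all reproducible regions without a match to any word was not computed. GC content in these windows ran from 22.9% at the weakest Sxl region to 42.8% at the strongest inside the gene, around a mean of 33.2% ± 7.09 (SD over 5683 regions).

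Binding was measured as 5 lists of regions. Each replicate and the pool of all 3 gave 30000 regions, most of them background by design, of which 8532, 10358 and 8146 in replicates 1, 2 and 3 had a q-value under 0.05 from the authors' peak caller. The reproducible regions are those kept by the irreproducible discovery rate, or IDR, and are the 5683 strongest of the pooled list. The unit of comparison here is the rank of a region's signal within its list, where rank 1 is the strongest, because the scale of the signal is not given in the sources used here. Read depth is unknown. The 3 samples are labelled as biological replicates.

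As a group these genes were marked about as often as other genes. An IDR summit lay in the window of 4 of 10 members (Sxl, fru, her and mof), and of 42.0% of all protein-coding genes under the same rule. A summit among the 5683 strongest regions of every replicate was found for the same 4 of 10 members, against 37.6% of genes. With the looser mark of a q under 0.05 in every replicate, ix and mle joined them, making 6 of 10 against 44.9%. No region with q under 0.05 in any replicate was found for 2 of 10 members, msl-2 and tra, against 36.2% of genes. The pooled list placed at least 1 region of any strength at 6 of 10 members, with a median best rank of 3160.5 over those 6. Over all genes it did so for 66.9%, with a median best rank of 3442 over those 9326.

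**Figure D1:**
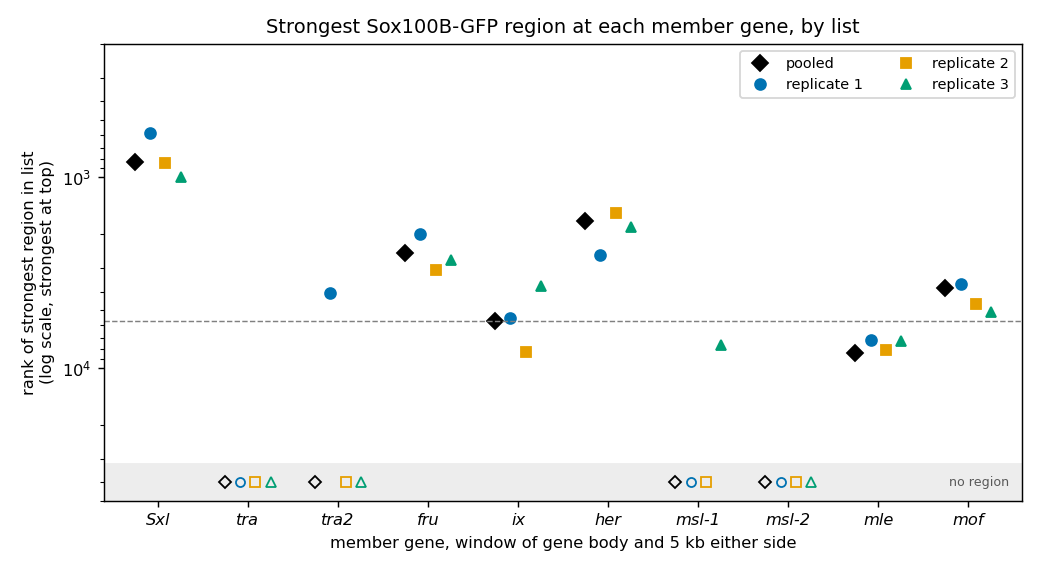
The plot of best ranks gives, for each member gene on the x axis, the rank of the strongest region in its window (y axis, log scale, strongest at the top) in the pooled list and in replicates 1 to 3; open symbols in the grey band mark lists with no region there, and the dashed line is rank 5683. Sxl stands highest in all 4 lists, with ranks from 587 to 997, while tra and msl-2 have no region in any list.

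Where the regions lay differed among the 4 marked genes. Of the 10 summits, 7 were in the body of their member, 4 in fru and 3 in Sxl, and for these 7 a start of the member itself was the nearest transcription start site (TSS) of any coding gene. The other 3, upstream of Sxl, beyond her and upstream of mof, were outside the member and nearest to the start of a neighbour. In all, 9 of 10 summits were intronic, in the member or in a neighbour, against 54.4% of all IDR summits, and 5 of 10 were within 1 kb of a TSS, against 43.6%. Taking the strongest overlapping region as a replicate's partner, 9 of 10 had a partner among the 5683 strongest of every replicate, against 71.0% of all IDR regions. The 9 include the fru region of rank 5631, which has the partners of a stronger region it overlaps. They fell to 2 when the overlap had to cover 50% of both regions. The share of all IDR regions under that stricter rule was not computed. Widths of the 10 ran from 123 to 464 bp, and the median widths in replicates 1, 2 and 3 were 450, 464 and 456 bp. The highest rank number of the partners over the lowest was between 1.31 and 2.16. Over the 5626 IDR regions with a partner in every replicate, the median of that ratio was 1.52, and over the 10 it was 1.66.

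Sxl carried the strongest regions of the group. The gene lies on the X chromosome at 7074550–7098053, minus strand, with 25 annotated transcripts whose starts form 3 groups. The outermost group, with 19 transcripts, starts at 7098053. A second, with 2, starts 0.987 kb further in, and the innermost, with 4, starts 5.17 kb in, at 7092883. By their order along the gene the outermost is taken here as Pm and the innermost as Pe.

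The 3 IDR summits inside Sxl all lay between Pm and Pe, within a span of 1643 bp. The strongest, chrX:7096477-7096838 with rank 899 by IDR signal and a signal of 682, ranked 851, 840 and 1392 in replicates 1, 2 and 3. Its summit was 357 bp downstream of the middle start group, 1344 bp downstream of Pm and 3826 bp upstream of Pe. The next, chrX:7095552-7095856 with a signal of 554 and rank 1222, ranked 1556, 1314 and 1146, with its summit 2340 bp downstream of Pm and 2830 bp upstream of Pe. The 3 replicates put both of these among their 1556 strongest regions. The weakest, chrX:7095006-7095200 with a signal of 252 and rank 3654, ranked 3957, 5681 and 2634, and was the nearest IDR summit to Pe, at 2183 bp upstream. In replicate 2 it lay at the edge of the 5683 strongest. Runs of 3 or more IDR summits within such a span took in 429 summits, or 7.55% of the list.

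The strongest region of the Sxl window lay outside Sxl, in a neighbour. It covered chrX:7101580-7101965, with a signal of 712 and rank 837, and ranked 587, 978 and 997 in replicates 1, 2 and 3. Its summit was 3779 bp upstream of Pm, in an intron of CG4615 and 468 bp from a start of that gene. At Pm itself the pooled list held a weaker region, chrX:7097458-7097921, whose summit was in a 5′ UTR of Sxl, 363 bp downstream of the outermost start. Its pooled rank was 5920, which is 237 places below the end of the IDR list, and its replicate ranks were 6580, 5043 and 7240, each with a q under 0.05. One more pooled region with q under 0.05, at rank 8572, lay in a Sxl intron 6242 bp from the nearest Sxl start, downstream of Pe, and passed that q in 2 of 3 replicates. No list had a summit with q under 0.05 closer to Pe than 2174 bp. Whether Pe was in use in these embryos was not measured.

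**Figure D2:**
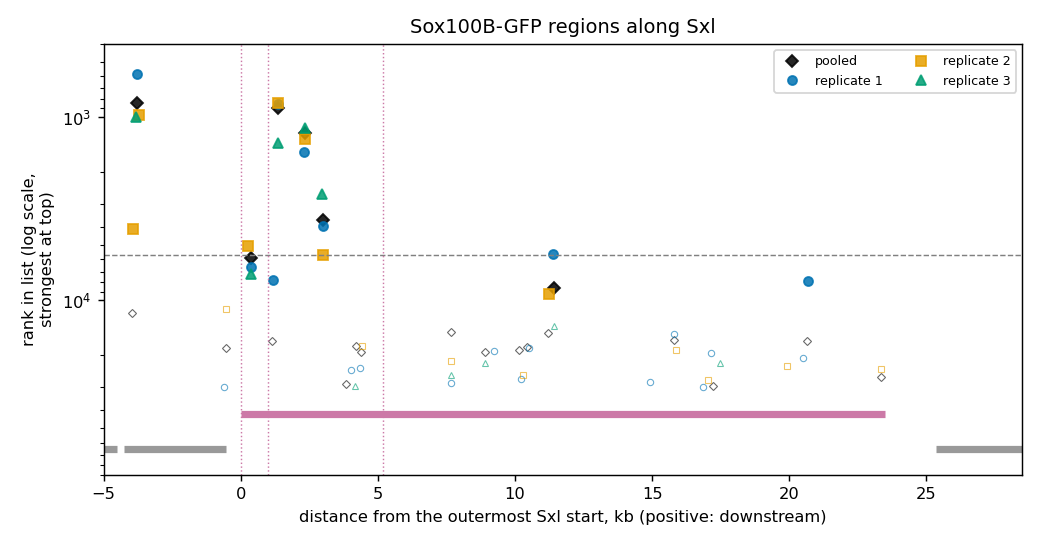
The map of Sxl plots each region of the pooled list and of replicates 1 to 3 by the distance of its summit from the outermost start (x axis, kb) and its rank (y axis, log scale, strongest at the top); filled symbols have q under 0.05, dotted lines are the 3 start groups, the dashed line is rank 5683, and the bars below are Sxl (pink) and its neighbours (grey). The strong regions stand 3779 bp upstream of the gene and between the outermost start and the innermost one at 5.17 kb.

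With 4 IDR summits in a window of 33.5 kb, Sxl had 1.19 per 10 kb. Of the 200 genes nearest to it in window length (30.9 to 36.1 kb), 67.5% had an IDR summit, their median was 1, and 24.5% had 4 or more. That is, 49 of the 200 had as many as Sxl or more.

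fru was marked at a few places in a long gene, and not at its sex-specific promoter. It encodes BTB zinc finger proteins and spans 131314 bp of 3R, 18414273–18545586, minus strand, with 15 transcripts from 7 start groups. The outermost start, P1, serves 8 transcripts. The IDR summit nearest to it on either side was 28405 bp away, upstream of the gene, at rank 334, in an intron shared by CG7694 and fray. The first IDR summit inside fru lay 37092 bp downstream of P1.

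That summit, in the region chr3R:18508335-18508551, was the strongest of fru, with a signal of 335 and rank 2503, and ranked 1990, 3106 and 3592 in replicates 1, 2 and 3. It was 1932 bp upstream of the second start group, that of fru-RI, and 4428 bp upstream of the third, that of fru-RJ. The other 3 summits were close to the innermost start, that of fru-RM, 106.8 kb from P1. The region chr3R:18439380-18439562, with a signal of 298 and rank 2936, had its summit 736 bp upstream of this start and ranked 2597, 3659 and 3585. The region chr3R:18436608-18436730, with a signal of 328 and rank 2585, had its summit 2060 bp downstream and ranked 2329, 3060 and 2711. The last, chr3R:18436679-18437142 at rank 5631, overlapped the one before it with a summit 200 bp away. In replicates 1 and 3 both were covered by 1 region, and in replicate 2 the separate region there had rank 7028. fru therefore had 4 IDR summits at 3 places. The start groups of fru-RK, fru-RD and of the pair fru-RA and fru-RL had no IDR summit closer than 7822 bp.

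**Figure D3:**
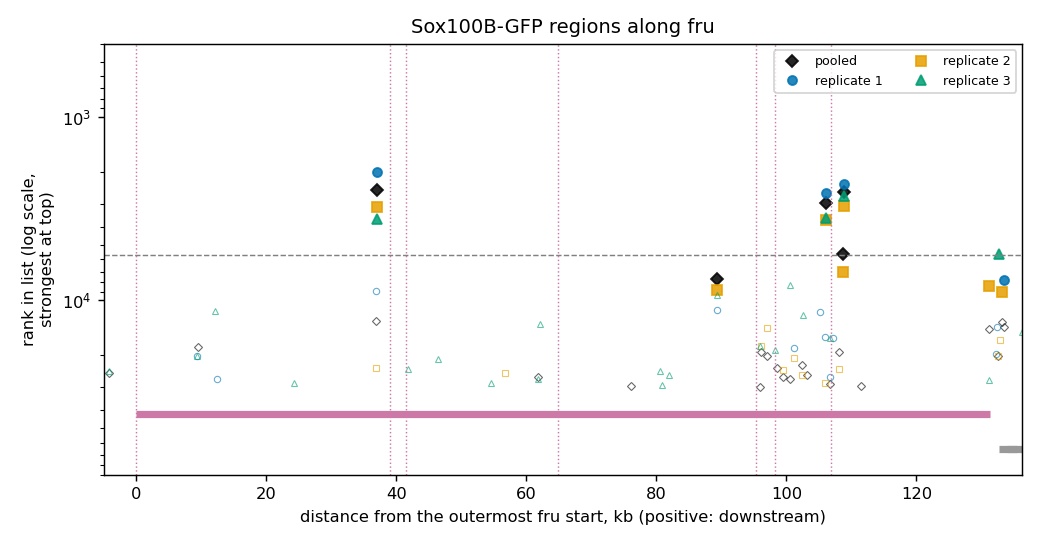
The map of fru is drawn as for Sxl, with distance from the outermost start P1 in kb on the x axis and rank on a log y axis; dotted lines are the 7 start groups and filled symbols have q under 0.05. The regions above the dashed line at rank 5683 stand 37.1 kb and 106 to 109 kb from P1, beside 1 region of replicate 3 alone at 132.7 kb with rank 5586, and the stretch between the first and the second held none in the IDR list.

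Long stretches of fru were free of IDR summits. The gap between the summits on either side of the middle of the gene was 68987 bp, and the one across P1 was 65497 bp, against a median of 6357 bp between neighbouring IDR summits. Gaps at least as long made up 7.61% and 8.07% of the 5677 gaps. In the first of these the pooled list had 1 region with q under 0.05, at rank 7639, which passed that q in 1 replicate. Near the 3′ end of the gene each replicate had a region with q under 0.05, at ranks 7787, 9059 and 5586, with summits 2077, 1927 and 1396 bp beyond the gene. The nearest start was 565 bp away in replicate 1, of CG10864, and 528 and 3 bp away in replicates 2 and 3, of CG31122. These regions did not all overlap the same pooled region, and the pooled regions there ranked 13251 and 20188. Replicate 2 had a further region with q under 0.05 just inside fru, at rank 8416 and 1475 bp from a start of CG31122. Of the 200 genes nearest to fru in window length (72.7 to 189 kb), 76.5% had an IDR summit and 40.0% had 4 or more, with a median of 2 beside the 4 of fru.

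her and mof entered the count through summits near the starts of neighbouring genes. her lies on 2L at 16677185–16679691, plus strand. Its 1 IDR region, 16684190–16684626, had a signal of 444 and rank 1701 and ranked 2573, 1545 and 1834 in replicates 1, 2 and 3. The summit was 4659 bp beyond the end of her, in an intron of grp, a checkpoint kinase gene, and 342 bp from the start of CG31807. A pooled region at rank 8735, 78 bp from a start of grp, had q under 0.05 in replicate 3 alone, at rank 5289. No region with q under 0.05 lay in her or upstream of it.

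mof lies on X at 5873840–5876853, minus strand. Its 1 IDR region, 5880353–5880816, had a signal of 243 and rank 3818, and its summit was 3732 bp upstream of mof and 51 bp from the start of CG16721, in a 5′ UTR of that gene. It ranked 3637, 4623 and 6064 in replicates 1, 2 and 3, so that in replicate 3 its partner was outside the 5683 strongest. Replicate 3 counted mof among its strongest only through another region, at rank 5103, with a summit 75 bp from a start of Usp30. When an IDR region had to be overlapped by the strongest regions of the other two replicates, mof was kept without replicate 3 and lost without replicate 1 or 2, leaving 3 of 10 members.

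ix came closest to the IDR list without entering it. The gene is short, on 2R at 11359437–11360163, minus strand, and had regions at both ends. The one past its 3′ end, 11359063–11359526, had pooled rank 5707, which is 24 places below the end of the IDR list, and ranked 7801, 8292 and 3713 in replicates 1, 2 and 3, each with q under 0.05. Its summit was 868 bp downstream of the ix start but only 119 bp from a start of CG12384. The other, 11360178–11360641, had its summit 247 bp upstream of the ix start, which was the nearest. Its pooled rank was 6210, and its replicate ranks of 5494, 13703 and 4754 placed it under the q threshold in replicates 1 and 3 and far down the list in replicate 2.

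At mle, on 2R at 5974857–5980778, weak regions lay at several places upstream. The only pooled region with q under 0.05, at rank 8342, was 3683 bp upstream of mle in an intron of the Src-family kinase gene Src42A, with ranks of 15623, 8707 and 7215. Replicate 1 had its own region 1932 bp from the gene, at rank 7154, and replicate 2 one 219 bp from the mle start, at rank 8129. Replicates 2 and 3 thus passed the q threshold at the pooled region and replicate 1 only at its own.

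tra, tra2, msl-1 and msl-2 had no region of any strength in the pooled list. For tra (3L 16590059–16591050) and msl-2 (2L 3462218–3466112) this held in all 3 replicates as well, and the nearest IDR summits were 11861 and 10006 bp from the genes. For msl-1 (2L 18683720–18688800) replicate 3 had a region of rank 7618, 526 bp beyond the start, and the other replicates had none. The nearest IDR summit to msl-1, at rank 5274 and nearest to a start of CG10383, was 5205 bp away, just outside the window, while the her summit at 4659 bp was the farthest one inside it. For tra2 (2R 14602004–14604337) the nearest was 24196 bp away, for ix 28411 bp and for mle 36721 bp. The windows of tra, tra2 and ix each held 6 other coding genes, and that of mle 2.

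**Figure D4:**
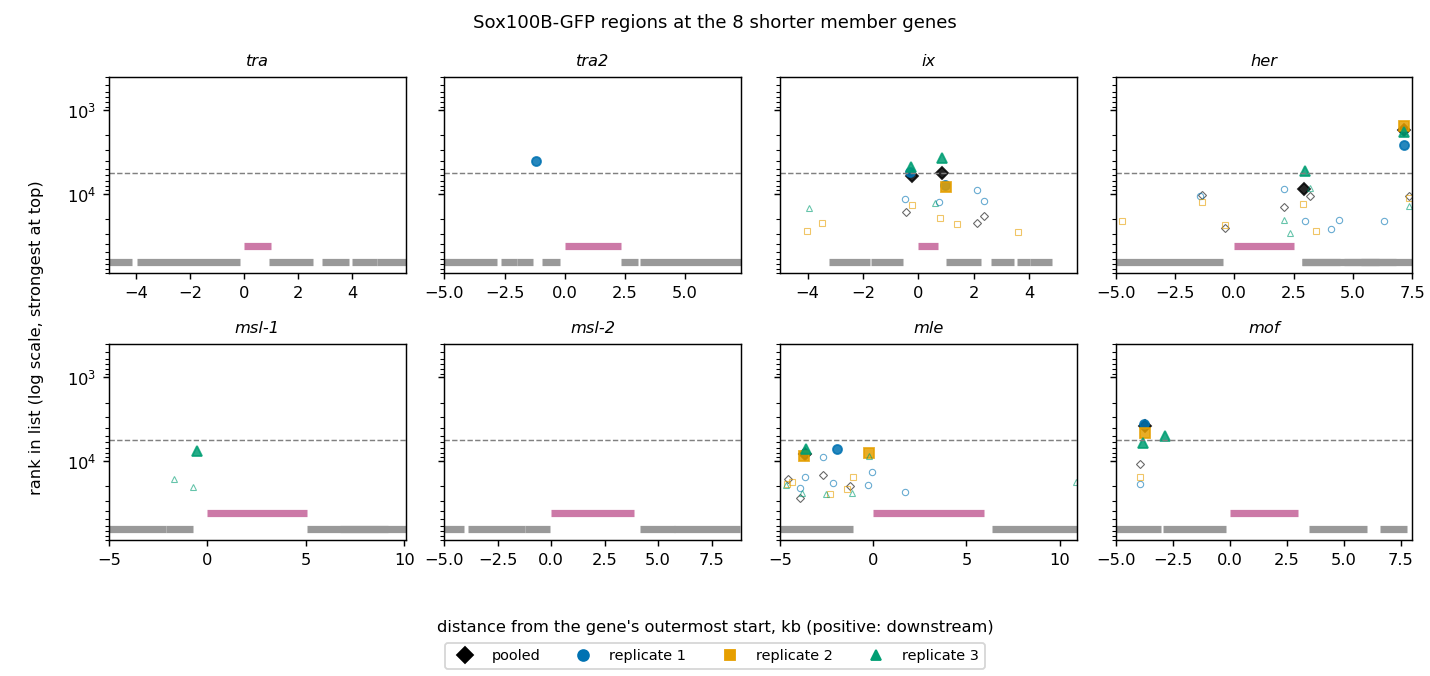
Each panel of the maps of the 8 shorter genes plots regions in 1 window by the distance of the summit from the gene's outermost start (x axis, kb) and by rank (y axis, log scale, strongest at the top), with the member in pink, neighbours in grey, filled symbols for q under 0.05 and a dashed line at rank 5683. In her and mof the regions above the line stand outside the pink bar. So do a region of replicate 1 in tra2 and regions of replicates 1 and 3 in ix. The panels of tra and msl-2 hold no region.

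Longer windows held an IDR summit more often on the whole, and the members with summits in their bodies were the longest. Among the 200 genes nearest in length to each member, the share with an IDR summit was 34.5% for tra, 37.0% for ix, 36.5% for tra2, 44.5% for her, 42.0% for mof, 40.5% for msl-2, 45.0% for msl-1 and 51.5% for mle. None of these 8 genes, with windows of 10.7 to 15.9 kb, had an IDR summit in the gene body. The 2 members that did, Sxl and fru, had the longest windows. The shares above are for whole windows. In the gene body alone, 12.5% of all protein-coding genes of any length had an IDR summit, and this share was not matched for length.

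**Figure D5:**
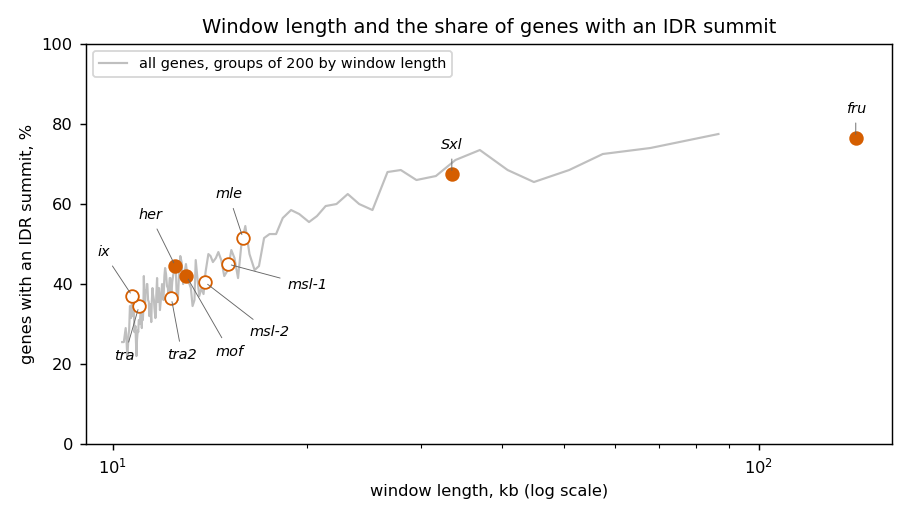
The plot of window length shows the share of genes with an IDR summit (y axis, %) against window length (x axis, kb, log scale). The line joins successive groups of 200 genes ordered by length and starting every 100 genes, and each circle gives the share among the 200 genes nearest in length to a member, filled where the member has an IDR summit. The share goes from 34.5% at tra to 76.5% at fru.

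Other genes of the pathway or acting beside it were listed by role, 30 in all. Of these, 28 code for proteins and 2 are the roX RNAs. An IDR summit lay in the same window at 16 of 30, where 42.0% of all protein-coding genes had one, and in the gene body at 9 of 30, where 12.5% had one. The lengths of the listed genes were not matched in these shares, and the counts by role below are read against the same 42.0%. For 10 of the 16 the strongest summit was nearest to a start of the gene itself. Of 9 genes listed for X chromosome counting and the early control of Sxl, whether for or against its activation, 5 had a summit. The strongest was at gro, a corepressor gene, at rank 568 and 143 bp from its start, with replicate ranks of 756, 529 and 625. Stat92E, the JAK-STAT transcription factor gene, followed at rank 1027 with 5 summits, sisA, an X-linked signal element, at 1029, da, a bHLH activator gene, at 1384 and emc, an inhibitor of bHLH factors, at 4855. For sisA and da the nearest start belonged to Gapvd1 and mRpS7. The other 4, sc, run, upd1 and dpn, had none.

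Of 8 genes that aid Sxl in RNA processing and translation, 3 had a summit. They were fl(2)d, of the m6A methyltransferase machinery, at rank 1562, Unr, the corepressor of msl-2 translation, at 2000 and 138 bp from its start, and Mettl14 at 788, where the nearest start was 49 bp away and belonged to CG7810. snf, vir, nito, Mettl3 and Ythdc1 had none. Of 5 genes of the MSL complex and its partners, 2 had a summit. JIL-1, which encodes a histone kinase enriched on the male X, had the strongest region of all genes listed, at rank 154 in an intron 1693 bp from its start, with replicate ranks of 112, 178 and 169. Clamp, which encodes the zinc finger protein that binds MSL recognition elements, had 2 summits, the stronger at rank 3981. msl-3 and both roX genes had none, as was the case for the members msl-1, msl-2 and mle. The member mof had 1, at rank 3818 and nearest to the start of CG16721.

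The 8 genes listed at the output of the pathway include Abd-B, which is not itself a step of it. Of these 8, 6 had a summit, against 42.0% of all protein-coding genes of any length. dsx, the transcription factor gene spliced by Tra and Tra2, had 2 in its body, the stronger at 3R 7962999–7963278, 422 bp from a start, with rank 1088 and replicate ranks of 1267, 1139 and 1158. Abd-B, the Hox gene of the posterior abdomen, had its strongest at rank 374. bab2 and bab1, which set sexually dimorphic pigmentation, had 4 and 7 summits with best ranks of 1201 and 1549, although the strongest summit at bab1 was nearest to a start of CG9205. The strongest summit at the yolk protein gene Yp3, rank 447, was nearest to a start of rdgB, and that of dsf to one of Gpdh1. Yp1 and Yp2 had none. The strongest fru region, set beside that of dsx, ranked 1990, 3106 and 3592.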

How the data were processed

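Chromatin immunoprecipitation of Sox100B-GFP embryos was sequenced in 3 biological replicates. Chromatin was sonicated to 200 to 800 bp, per the labels. The authors deposited 5 region lists on dm6 with a signal value and a −log10 q-value for each region; per the notes deposited beside them, each replicate list comes from that replicate's alignments, the pooled list from those of all 3, and the IDR list from these 4. The sources used here name no aligner, peak caller or IDR cutoff. Signal served to order the regions of each list.

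Members were matched by symbol to the Ensembl annotation. A window was the gene body and 5 kb either side. The nearest TSS was that of a coding gene, or of a listed roX RNA. Starts of Sxl and fru within 500 bp were merged. A replicate's partner of a region was its strongest region overlapping by 1 bp or more. Every result is a description: with 1 group and no control list, no test was made. All members are named, as are pathway genes with an IDR summit. Members and lists were chosen with earlier results of these data known. The counting was tested on simulated data. Python 3.11.15, NumPy 2.4.6, pandas 2.3.3 and matplotlib 3.10.9 were used.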

Additional observations from a re-analysis of the deposited data

How the results depend on the processing

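The count of 4 of 10 members rests on the 5 kb flanks. It was 2 of 10, Sxl and fru, with the gene body alone, with the body and 1 kb upstream, and with each summit given to the nearest TSS, while all genes with a summit fell from 5852 to 1738 (12.5%), 3106 (22.3%) and 2994 (21.5%). With 10 kb either side 5 members had 17 summits, msl-1 being the addition, and the background was 56.9%. Keeping the 2841 strongest IDR regions left 6 summits at 3 members, Sxl, fru and her, with a background of 30.5%. Without each replicate in turn, 3 to 4 members and 9 to 10 summits were left, with a background of at most 36.9%. The count of members among the strongest regions of every replicate was 4, against 37.6% of all genes. It was 2 with 2841 regions per replicate (Sxl and her), with the gene body alone and with the body and 1 kb upstream. With 10 kb either side it was 6, tra and msl-1 being the additions, and without a replicate it was 4 to 5. The share of all genes for this count was not computed under these settings. Other pathway genes fell from 16 to 9 with the gene body alone. An overlap of 50% of both regions left 2 of the 9 members' regions shared by every replicate. The share of all IDR regions under that rule was not computed, and the cause was not tested. Within 50 bp of the summit 0 of the 10 regions held a Sox core, against 13.3% of all IDR regions. Within 150 bp 3 did, against 35.2%. Read depth is unknown, no list of untagged embryos was used, and regions at a start shared by close genes cannot be told apart by gene.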

Other observations

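Some members had a region in 1 replicate that the other lists lacked. At tra2, replicate 1 had a region at 2R 14605304–14605753, with rank 4044 and a −log10 q of 2.79, where the pooled list and replicates 2 and 3 held no region of any strength; its summit was 232 bp from a start of CG12868. At mof, the replicate 3 region 5879465–5879920 at rank 5103 (−log10 q of 2.30) had no overlapping pooled region, although the pool was made from the alignments of all 3 replicates, per the deposited notes. At msl-1 the replicate 3 region of rank 7618 had none either. The cause was not tested.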
